A study of Mus musculus with 4 samples.

Results

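Open chromatin at 47 developmental transcription factor genes of the Polycomb-regulated type was described in lung endothelial cells lacking Dnmt3a. The genes belong to the Pax, LIM homeobox, head homeobox, sine oculis (Six2, Six3 and Six6), Vax, Dlx, NK, Irx, Sall and basic helix-loop-helix families, and the list was drawn up by gene name. All 47 were found among the 21883 protein-coding genes of the gene table. Peaks that overlapped the span of one of these genes, or the 10 kb on either side, merged into 198 regions of 113056 in the series. A merged region is a stretch in which peaks of the 4 libraries overlap by at least 1 bp.

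ATAC-seq, in which a transposase inserts adapters into accessible DNA, was run on lung endothelial cells that had been sorted from mice by flow cytometry. The series held 2 Dnmt3a knockout (KO) and 2 wild-type (WT) libraries, and for each library a peak list on mm10 gave positions without scores or counts. The labels named the genotypes only as KO and WT; the sources used here do not give the allele, any Cre driver, age, sex or the number of mice behind each library. Read depth was unknown, differences between libraries of 1 genotype may be technical, and a missing peak is a missing call that does not show closed chromatin. In a bulk library, fewer cells with an open region and a weaker opening in each cell cannot be told apart.

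Polycomb repressive complexes place a methyl mark on histone H3 lysine 27 and keep genes of other lineages silent. Their best-known targets are the CpG-rich starts of developmental regulators, which lie in broad stretches that stay low in DNA methylation in most tissues. Dnmt3a is a de novo DNA methyltransferase, and in other mammalian cell types it is known to act at the edges of such stretches. Neither DNA methylation, the histone mark nor RNA was measured in these lists, so the name Polycomb-type rests on general knowledge of the genes and not on these cells.

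The CpG content of the starts was the property that could be read from sequence, and 38 of the 47 genes had an entry in the RefSeq promoter table (GRCm38.p6, the mm10 assembly). Otx1, Dlx6, En2, Pax3, Sall3, Sim2, Irx1, Dlx5 and Lhx5 had none. The observed over expected CpG ratio in the 300 bp from 250 bases before the start to 50 bases after it had a median of 0.779 at these 38 genes (quartiles 0.62 and 0.896), against 0.563 (0.228 and 0.816) at the starts of 17453 other genes. Median GC content was 62.5% at the members and 56.3% at the other genes. The 250 bases before the start of 6 members follow, 5′ to 3′ on the gene's own strand, with every CpG dinucleotide in capitals. They were chosen to show the patterns met below: a region called over the start in both WT lists only (Emx1 and Nkx6-1), a start region absent from KO replicate 1 alone (Gsc and Tlx3), a start open in all 4 libraries (Six2) and a start with no peak (Neurog1).
Emx1: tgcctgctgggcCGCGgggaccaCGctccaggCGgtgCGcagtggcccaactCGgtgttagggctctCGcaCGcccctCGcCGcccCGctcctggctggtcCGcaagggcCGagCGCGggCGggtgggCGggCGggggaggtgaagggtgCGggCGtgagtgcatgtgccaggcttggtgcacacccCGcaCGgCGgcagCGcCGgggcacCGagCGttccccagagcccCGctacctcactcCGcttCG
Nkx6-1: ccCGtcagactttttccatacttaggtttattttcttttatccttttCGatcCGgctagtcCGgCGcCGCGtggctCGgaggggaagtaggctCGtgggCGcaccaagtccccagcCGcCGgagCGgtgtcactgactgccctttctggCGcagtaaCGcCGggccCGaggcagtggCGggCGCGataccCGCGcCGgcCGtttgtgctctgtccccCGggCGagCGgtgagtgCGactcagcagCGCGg
Gsc: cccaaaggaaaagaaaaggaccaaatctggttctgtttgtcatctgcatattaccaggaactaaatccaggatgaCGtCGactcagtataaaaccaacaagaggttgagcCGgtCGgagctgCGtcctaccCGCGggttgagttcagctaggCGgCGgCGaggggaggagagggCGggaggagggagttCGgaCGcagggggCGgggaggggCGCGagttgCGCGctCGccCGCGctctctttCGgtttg
Tlx3: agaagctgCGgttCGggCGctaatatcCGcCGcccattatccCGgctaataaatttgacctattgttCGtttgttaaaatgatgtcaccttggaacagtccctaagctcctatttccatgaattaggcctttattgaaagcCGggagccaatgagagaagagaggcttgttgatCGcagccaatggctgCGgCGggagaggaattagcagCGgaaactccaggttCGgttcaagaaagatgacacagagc
Six2: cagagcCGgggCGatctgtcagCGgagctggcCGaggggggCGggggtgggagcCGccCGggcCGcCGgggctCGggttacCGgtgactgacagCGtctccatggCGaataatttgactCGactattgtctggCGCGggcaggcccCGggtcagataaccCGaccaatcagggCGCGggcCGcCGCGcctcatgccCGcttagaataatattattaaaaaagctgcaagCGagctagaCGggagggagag
Neurog1: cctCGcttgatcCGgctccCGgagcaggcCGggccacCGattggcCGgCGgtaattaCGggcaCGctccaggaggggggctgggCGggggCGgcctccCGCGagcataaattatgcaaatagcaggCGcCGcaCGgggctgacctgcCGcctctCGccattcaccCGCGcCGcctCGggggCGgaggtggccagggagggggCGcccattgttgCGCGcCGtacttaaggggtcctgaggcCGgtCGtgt
These bases lie at chr6:85187681-85187930 on the plus strand for Emx1 and, all on the minus strand, at chr5:101664712-101664961 for Nkx6-1, chr12:104473237-104473486 for Gsc, chr11:33203589-33203838 for Tlx3, chr17:85688255-85688504 for Six2 and chr13:56252181-56252430 for Neurog1. Emx1 and Nkx6-1 hold 30 CpG each, Neurog1 29, Six2 26, Gsc 22 and Tlx3 13, against a median of 10 over 21262 listed promoters of protein-coding genes. As many CpG as at Emx1 were found in 7.66% of those promoters, and as many as at Tlx3 in 42.4%. The start with no peak and the start open in all 4 libraries were thus both CpG-rich.

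Across the series, 66.7% of merged regions were called in all 4 lists. KO replicate 1 had the shortest list, 85091 peaks, against 100879 in KO replicate 2 and 101442 and 97627 in the WT replicates, and this library stands apart in much of what follows. At Dnmt3a itself 17 and 23 peaks were listed in the KO libraries, against 22 and 20 in the WT libraries, which does not check the genotype because peak positions do not show the deleted sequence. Marker genes without a listed start counted as open at the start with a peak within 1000 bp of either gene end. By this rule all 12 endothelial marker genes were open at the start in every library. So were 1 of 7 leukocyte markers and 1 of 5 myeloid markers (2 in WT replicate 1). Of 7 epithelial markers, 5 and 6 were open in the KO libraries and 6 in each WT library. Of 6 mural and fibroblast markers, 3 and 5 were open in the KO libraries and 5 in each WT library. At listed starts alone, 9 of 9 endothelial, 3 of 4 epithelial and 0 of 4 leukocyte markers were open in every library.

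Most of these genes carried a peak in these bulk libraries of sorted lung endothelial cells. Of the 47, 41 were open in all 4 libraries, meaning at least 1 peak in the gene or its 10 kb flanks, where 77.6% of all protein-coding genes were. Per library, 41 and 44 were open in the KO lists, against 45 and 44 in the WT lists. Member windows held a median of 4 regions, against 3 for all protein-coding genes, although the member genes were shorter (median 9572 bp against 17170 bp). Of the 198 regions, 124 lay inside a member gene and 8 inside another protein-coding gene, and 3 were shared by the neighbours Dlx1 and Dlx2.

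Pax7, a regulator of muscle stem cells, and Neurog1, a proneural factor of sensory neurons, had no peak in any library. Irx1, an Iroquois homeobox gene, had 1 peak in WT replicate 1 and none in the other 3 libraries. Emx1, a factor of the developing cerebral cortex, had 0 and 1 peaks in the KO libraries and 2 in each WT library. Gsc, the organiser homeobox gene goosecoid, and Dlx5, a factor of jaw and bone formation, each had 0 and 1 peaks in the KO libraries and 1 in each WT library. These 3 genes were open in every library but KO replicate 1. At the other end, Lhx6, which specifies cortical interneurons, had 9 and 11 peaks in the KO libraries against 8 and 10 in the WT libraries, and its 14 regions were the most at any member. It also led in shared regions with 6 called in all 4 lists, followed by Lhx2, a forebrain and eye factor, Nkx2-2, a factor of ventral spinal cord and pancreas, and Pax8, a thyroid and kidney factor, with 5 each. Emx2, Lhx9, Dlx2, Neurog2 and Gbx2 had 4 each.

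**Figure D1:**
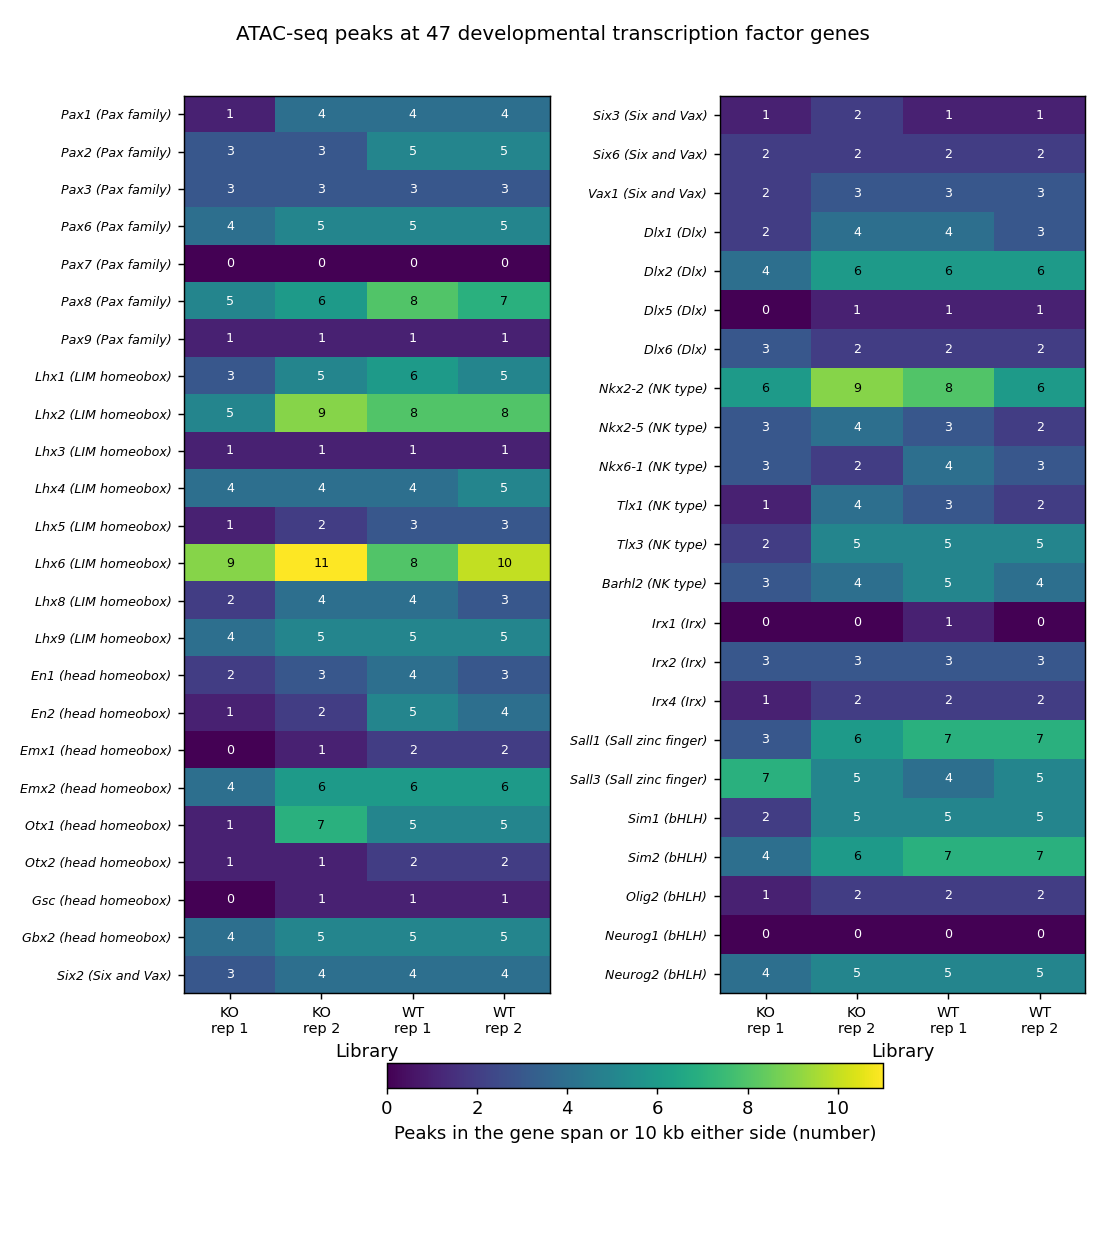
Number of ATAC-seq peaks in the span of each of the 47 genes or 10 kb either side, with genes in rows and the 4 libraries in columns. KO replicate 1 holds fewer peaks than every other library at 29 of the 47 genes, while Pax7 and Neurog1 are at 0 throughout.

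At the start itself, within 1000 bp, 26 and 31 of the 38 genes with a listed start were open in the KO libraries and 31 in each WT library. In percent this was 68.4% and 81.6% in the KO libraries and 81.6% in each WT library, beside 62.9% and 64.9% in KO, against 65.3% and 65% in WT over all genes with a listed start. The start was open in all 4 libraries at 24 of the 38 (62.4% of all such genes). Pax1, Emx2, Gsc, Six6 and Tlx3 lacked a start peak in KO replicate 1 alone, and Pax6, the eye and pancreas regulator, lacked one in WT replicate 1 alone. Pax8 had one in KO replicate 1 and WT replicate 1, Emx1 in both WT libraries, and Tlx1, a factor of spleen formation, in KO replicate 2. Besides Pax7 and Neurog1, the starts of Six3 (forebrain and eye), Nkx2-5 (heart) and Irx4 (heart ventricle) had no peak in any library. These 5 starts without a peak had a median CpG ratio of 0.747, close to the 0.779 at the 24 starts open in all 4. Among other genes the medians were 0.174 at the 5878 starts open in no library and 0.748 at the 10894 open in all 4.

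Summed over the members, 118 and 172 peaks were listed in the KO libraries, against 179 and 171 in the WT libraries, a mean of 145 ± 38.2 in KO and 175 ± 5.66 in WT (SD, n = 2 each). Because the lists differ in length, the same counts per 1000 peaks of the list were 1.39 and 1.71 in KO, against 1.76 and 1.75 in WT. The covered length was 49 and 72.8 kb in KO, against 84.4 and 81.1 kb in WT, or 1.05 and 1.52 bp in KO against 1.65 and 1.61 bp in WT for every 1000 bp covered by the list. Both KO libraries lay below both WT libraries in the scaled peak count and in covered length. KO replicate 2 was close to WT in peak counts and further below it in covered length, and KO replicate 1 was the lowest library in each. Without KO replicate 1 the difference in peaks was -3, against -30 with all 4 libraries, and that in covered length -9.95 kb, against -21.9 kb. For every 1000 bp covered by the list, the difference in covered length was -0.106 bp, against -0.343 bp. Part of the raw gap in kb was series-wide, since each whole KO list covered less than either whole WT list. Total coverage was 46.6 Mb for KO replicate 1, 47.8 Mb for KO replicate 2, 51.1 Mb for WT replicate 1 and 50.5 Mb for WT replicate 2. With 2 libraries against 2 the smallest two-sided exact permutation p is 0.33, so no such difference could pass 0.05 and none was called. Covered length for every 1000 bp of the list at 31 genes of the Polycomb complexes was 2.08 and 2.04 in KO, against 2 and 2.02 in WT. The same measure at 25 endothelial transcription factor genes was 2.72 and 2.85 in KO, against 2.76 and 2.75 in WT. At 39 Hox genes, which are classical Polycomb targets, it was 0.654 and 0.867 in KO, against 0.922 and 0.875 in WT.

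By family, the head homeobox genes (En, Emx, Otx, Gsc and Gbx2), which pattern the brain, held 13 and 26 peaks in the KO libraries, against 30 and 28 in the WT libraries. The LIM homeobox genes held 29 and 41 in KO, against 39 and 40 in WT. Pax genes had 17 and 22 in KO, against 26 and 25 in WT. The NK-type genes (Nkx, Tlx and Barhl2) had 18 and 28 in KO, against 28 and 22 in WT. At the helix-loop-helix genes 11 and 18 peaks were listed in KO and 19 in each WT library. Peaks at the Dlx genes numbered 8 and 10 in KO and 10 in each WT library. Six2, Six3, Six6 and Vax1 together had 8 and 11 in KO and 10 in each WT library, Irx genes 4 and 5 in KO, against 6 and 5 in WT. Sall genes had 10 and 11 in KO, against 11 and 12 in WT. Both KO libraries lay below both WT libraries in the head homeobox, Pax and helix-loop-helix families, in the last by 18 against 19 for KO replicate 2. KO replicate 1 was the lowest library in all 9. These counts were not scaled to list length. KO replicate 1 was also the lowest over all protein-coding genes, with 62339 peaks and 74048 in KO replicate 2, against 73644 and 70849 in WT. At single genes both KO counts lay under both WT counts at 8 of 47 members (6.54% of protein-coding genes) and over them at 0 (2.03%).

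Regions called in both lists of 1 genotype and in no list of the other were few. Both KO lists and neither WT list called 5 of the 198 regions, 2.53%, beside 1.12% of all merged regions. Both WT lists and neither KO list called 11, or 5.56%, beside 3.04% of all merged regions. In the windows of all protein-coding genes the shares were 1.11% for KO-only and 2.68% for WT-only regions. Another 11 member regions (5.56%) were called in 1 KO and 1 WT list, against 4.72% of all merged regions. This class does not follow genotype, but it pools every pairing of a KO with a WT library. KO-only and WT-only regions each stand for 1 pair of libraries, so the counts are not directly comparable. The KO-only regions lay at 4 members (4.41% of protein-coding genes had one) and the WT-only regions at 10 (9.47%), while 34 members had neither. The counts moved with single libraries. Leaving out KO replicate 2 gave 53 WT-only regions (27.5% of member regions, 11.1% of all), leaving out WT replicate 1 gave 19 (9.95% of member regions, 5.9% of all) and leaving out WT replicate 2 gave 23 (11.9% and 7.65%). Without KO replicate 1 there were 11 KO-only regions (5.56% of member regions, 5.83% of all) and 14 WT-only regions (7.07% and 4.99%). The KO-only share also fell below that of all regions when the lists were cut to equal length by width, 1.11% of member regions beside 1.96% of all.

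**Figure D2:**
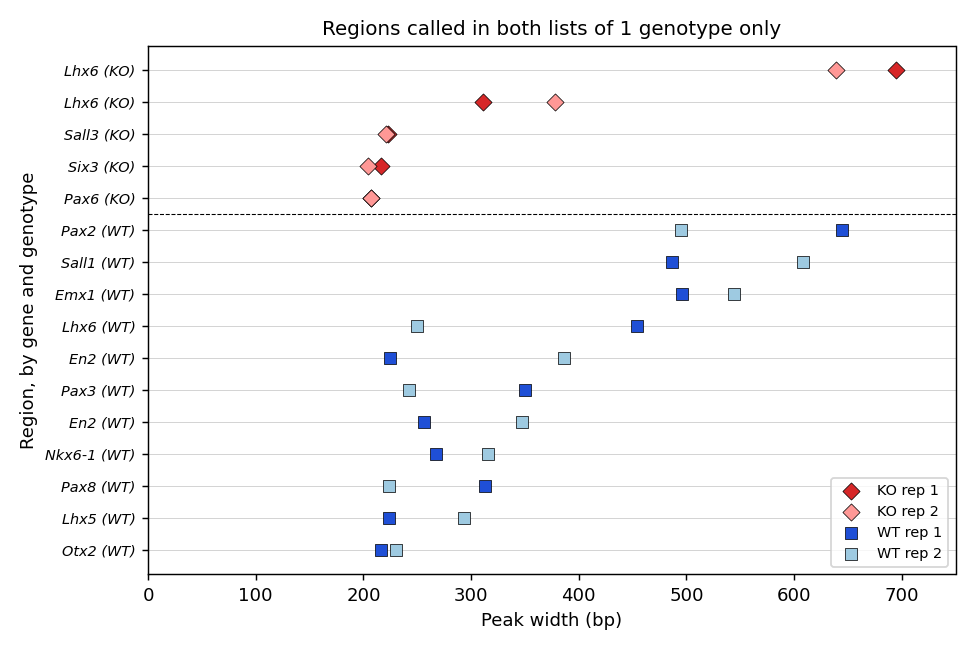
Width in bp of the peaks in the 5 regions called in both KO lists only (diamonds, above the dashed line) and the 11 called in both WT lists only (squares, below it), each row a region named by its gene. The KO regions at Sall3, Six3 and Pax6 sit near the narrowest peak listed, 201 bp, and the widest regions are at Lhx6 for KO and Pax2 for WT.

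Lhx6 was the one member with both patterns. Its peaks at chr2:36091080-36091797, inside the gene and 12622 bp downstream of the nearest listed start, were 695 and 639 bp wide in KO and absent in WT, although a WT peak lay 492 bp away. Lhx6 has 3 listed starts. Nearer to them, chr2:36102512-36102889 was called in KO only (311 and 378 bp), and chr2:36103632-36104085, 743 bp further on, in WT only (454 and 250 bp). This WT-only region was itself at a listed start, with its centre 202 bp from it. A region called in all 4 libraries, chr2:36104606-36105813, followed at another listed start with 700 and 957 bp in KO, against 1148 and 1203 bp in WT. Within the first kilobases of Lhx6, then, calls of one genotype sat beside calls of the other and beside shared ones.

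The other KO-only regions were narrow. Six3, at chr17:85618097-85618391 inside the gene, had peaks of 216 and 204 bp, and the nearest WT peak was 15276 bp away. The Pax6 region, chr2:105682733-105683064 and 435 bp from a listed start, had 207 bp in both KO libraries, with a WT peak 365 bp away. Sall3, a zinc finger gene of the spalt family, had peaks of 223 and 221 bp inside the gene and a WT peak 727 bp away. The median width of the 5 KO-only regions was 223 and 221 bp in the KO libraries, against 262 and 294 bp over all KO-only regions of the series.

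Among the WT-only regions, the one over the start of Emx1 spanned chr6:85187611-85188233 and covered all 250 of the bases printed above. Its peaks were 496 and 544 bp wide in WT, and the nearest KO peak was 2056 bp away. At Nkx6-1, a factor of motor neurons and pancreatic beta cells, chr5:101664574-101664923 covered 212 of the printed bases with peaks of 267 and 316 bp in WT. Here a KO peak lay 255 bp away, and regions on either side of it were called in all 4 libraries. The one at chr5:101665178-101665717 lies within 1000 bp of the start, so the Nkx6-1 start counts as open in every library. Both of these starts are among the most CpG-rich printed. The widest WT-only region, at the far end of the kidney and eye gene Pax2 (chr19:44836042-44836759, 79494 bp from a start), had 645 and 495 bp in WT with no KO peak within 50942 bp. At Sall1, a kidney regulator, chr8:89023828-89024435 lay 2807 bp from the gene with 487 and 608 bp in WT.

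En2, which patterns midbrain and cerebellum, had WT-only regions at chr5:28167990-28168383 (225 and 386 bp) and chr5:28168730-28169076 (256 and 347 bp), and 1 and 2 peaks in KO against 5 and 4 in WT. Pax3, a neural crest and muscle factor, had one inside the gene at chr1:78189523-78189872 (350 and 242 bp). The region of the forebrain gene Otx2, chr14:48668958-48669266, is centred at -1468 bp from the start and had 216 and 230 bp. Pax8 had one at chr2:24479749-24480064 (313 and 224 bp), centred at -4307 bp from a start. In Lhx5, a hippocampal LIM factor, the region chr5:120439915-120440324 had 224 and 293 bp and a KO peak 422 bp away. The median width of the 11 was 313 and 316 bp in the WT libraries, against 265 and 249 bp over all WT-only regions. When absence was taken to mean no peak within 500 bp, 3 KO-only regions were left, 1.52% of member regions beside 0.905% of all, and 9 WT-only regions, 4.55% beside 2.78%.

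Polycomb complex genes themselves had 2 KO-only regions, at Jarid2 and the H3K27 demethylase gene Kdm6b, and 5 WT-only regions, at Ezh2, Mtf2, Aebp2, Cbx7 and Kdm2b (1.06% of their 189 regions for KO-only and 2.65% for WT-only). Over all merged regions these shares were 1.12% and 3.04%. Endothelial transcription factor genes had 4 KO-only regions (2 at Foxo1, 1 each at Fli1 and Nr2f2) and 5 WT-only regions (Erg, Fli1, Ets1, Epas1 and Tbx3). These were 1.32% and 1.66% of their 302 regions. Hox genes had 2 KO-only regions, in the windows of Hoxc4 to Hoxc6 and of Hoxd10 to Hoxd12, and 3 WT-only regions in the A and B clusters. These were 1.79% and 2.68% of their 112 regions. Among marker genes, KO-only regions lay at the endothelial Kdr and Egfl7, and WT-only regions at the endothelial Pecam1, Cldn5 and Erg, the lymphocyte gene Cd2 and the epithelial genes Nkx2-1 and Cdh1. The endothelial shares were 1.23% and 1.85% of 162 regions. WT-only regions were 7.14% of 14 at the leukocyte list and 8.33% of 24 at the epithelial list.

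**Figure D3:**
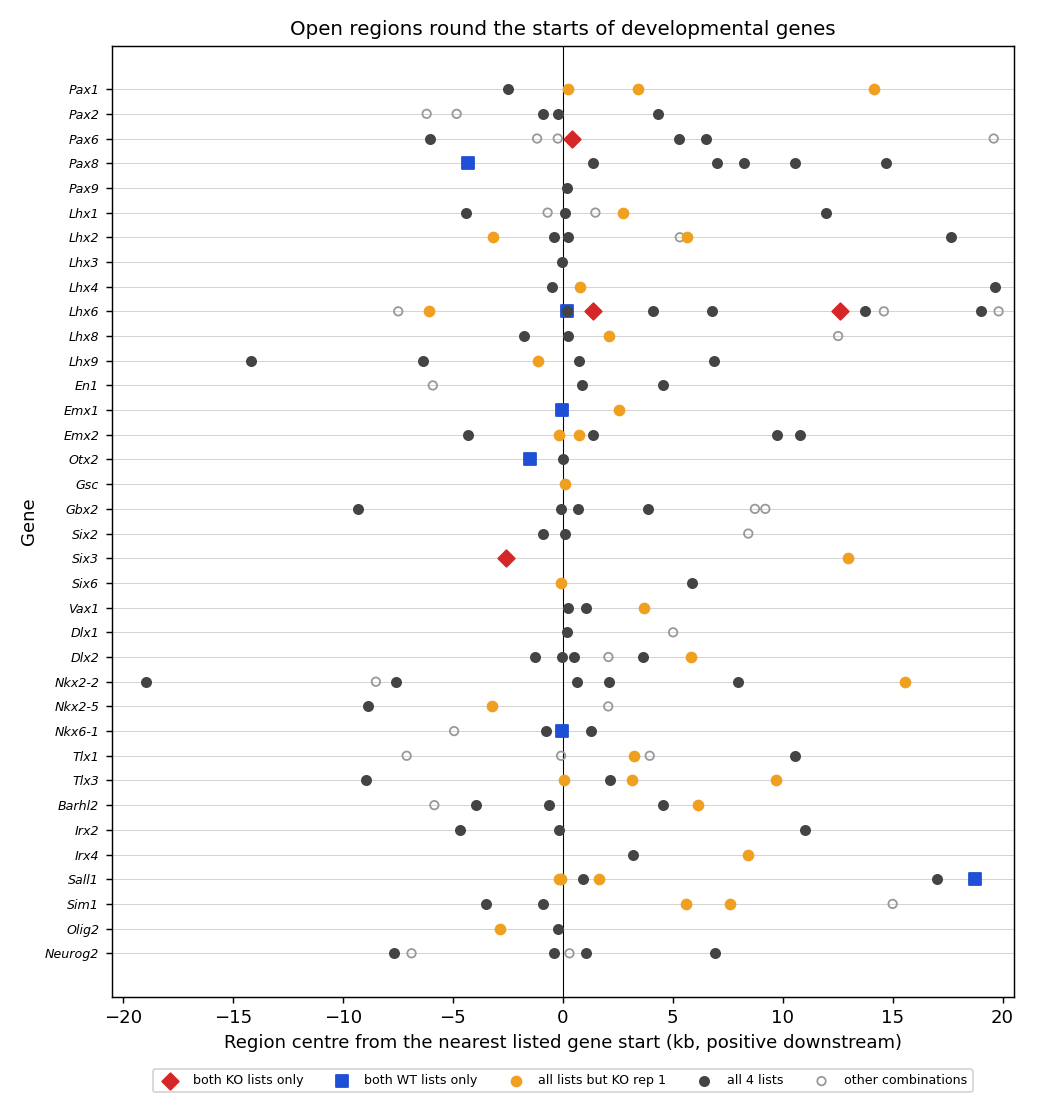
Centre of each region in kb from the nearest listed start, positive downstream, for 36 genes, with 151 of 163 regions drawn and 12 beyond 20 kb left out. KO-only (red diamonds) and WT-only (blue squares) regions are scattered over genes and distances, whereas regions absent from KO replicate 1 alone (orange) recur at many genes.

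Far more member regions were absent from 1 KO library than followed genotype. In 43 of the 198, 21.7%, a peak was called in KO replicate 2 and both WT libraries but not in KO replicate 1, which was the case for 7.59% of all merged regions. Only 3 were absent from KO replicate 2 alone, 0 from WT replicate 1 alone and 1 from WT replicate 2 alone. Of the regions called in the other 3 libraries, KO replicate 1 lacked 30.7% at the members (43 of 140) and 10.2% outside them. For KO replicate 2 the shares were 3% at the members and 2.66% outside, for WT replicate 1 0% and 1.06%, and for WT replicate 2 1.02% and 1.38%. Regions at Hox genes were absent from KO replicate 1 in 24.1% of cases, at Polycomb complex genes in 13.2%, at endothelial transcription factor genes in 12.2% and at endothelial markers in 9.38%. Since this separates the KO libraries from each other, it cannot be read as a difference between genotypes.

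**Figure D4:**
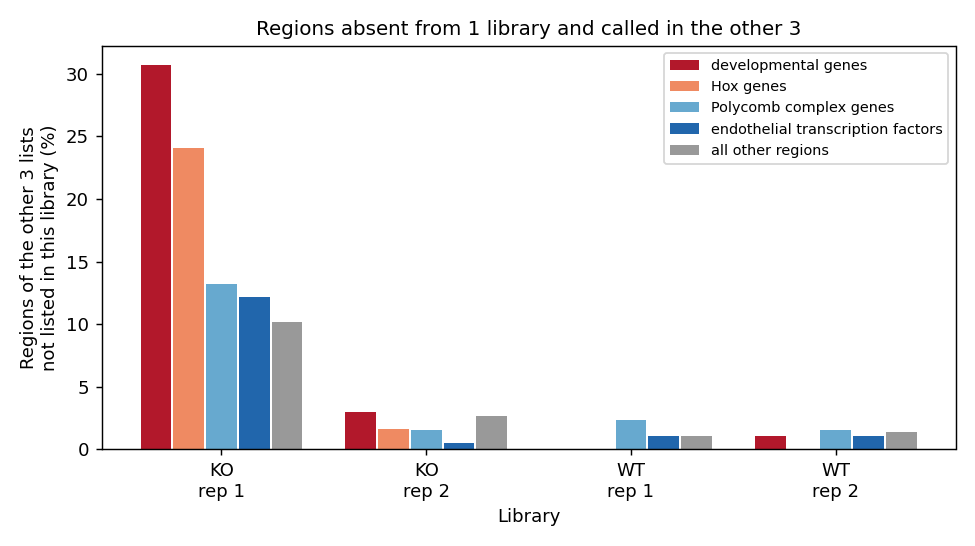
Percent of the regions called in the other 3 libraries that each library did not list, for the 47 developmental genes, 3 comparison lists and all other regions. In KO replicate 1 the developmental genes stand at 30.7% and the Hox genes at 24.1%, against 10.2% for all other regions, while in the other libraries every bar is at or below 3%.

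Such regions lay at 30 of the 47 members (23% of protein-coding genes had one). KO replicate 1 had fewer peaks than every other library at 29 members, 61.7%, against 22.7% of protein-coding genes, and KO replicate 2 at 1 member. The widest region of this kind lay in Vax1, a ventral forebrain gene (chr19:59166246-59167119), with no peak in KO replicate 1 and 874 bp in KO replicate 2 against 713 and 743 bp in WT. In Emx1, chr6:85190049-85190914 had no peak and 259 bp in KO against 860 and 751 bp in WT. Sim1, a hypothalamic factor, had no peak and 541 bp in KO against 608 and 652 bp in WT at chr10:50900914-50901588. In these examples KO replicate 2 was wider than both WT libraries at Vax1 and narrower than both at Emx1 and Sim1.

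Start peaks were among them. The single region of Gsc, chr12:104472758-104473510, covered its printed bases with no peak and 382 bp in KO against 729 and 516 bp in WT. At Tlx3, a factor of sensory neurons, chr11:33203193-33203830 covered 242 of the printed bases with no peak and 474 bp in KO against 499 and 559 bp in WT. Regions near the starts of Pax1, Six6 and Emx2 showed the same pattern with narrower peaks: none and 225 bp in KO against 264 and 340 bp in WT at Pax1, none and 210 bp in KO against 314 and 258 bp in WT at Six6, and none and 269 bp in KO against 225 and 397 bp in WT for the Emx2 region nearest the start. Sall1, Tlx3, Sim2, Pax1, Lhx2 and Otx1 each had 3 such regions.

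Over the whole series, regions absent from KO replicate 1 alone were narrow (medians of 285 bp in KO replicate 2 and 299.5 and 289 bp in WT, against 478, 510 and 514 bp for regions called in all 4 lists), so the shares were read within classes of mean width in the other 3 libraries. Under 300 bp, KO replicate 1 lacked 85% of member regions (17 of 20) and 50.7% of other regions. From 300 to 450 bp the shares were 33.3% of member regions (17 of 51) and 11.4% of others, from 450 to 600 bp 20% (6 of 30) and 1.26%, and at 600 bp or more 7.69% (3 of 39) and 0.304%. The members were above the rest in every width class. In KO replicate 2 the shares in the same classes, from narrow to wide, were 16.7%, 5.41%, 0% and 0% of member regions and 16.3%, 3.19%, 0.634% and 0.102% of other regions.

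**Figure D5:**
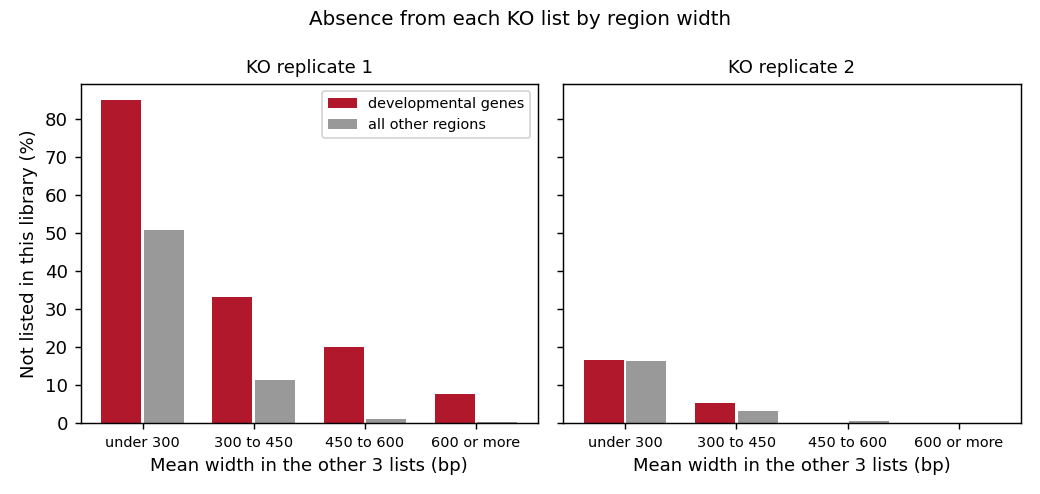
Percent of regions called in the other 3 libraries that were absent from KO replicate 1 (left) and KO replicate 2 (right), by mean width in bp in those 3 libraries, for the 47 developmental genes (red) and all other regions (grey). In KO replicate 1 the red bars exceed the grey in each class, from 85% against 50.7% under 300 bp to 7.69% against 0.304% at 600 bp or more, and in KO replicate 2 both are low above 300 bp.

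The shares were also read by distance from the nearest listed start of any gene and by the CpG ratio of the start. Regions at the 9 members without a listed start were thus measured to the start of another gene. Some other regions may have been as well. Within 1000 bp of a listed start KO replicate 1 lacked 22.5% of member regions (9 of 40) and 3.41% of others, from 1000 to 10000 bp 33.9% (20 of 59) and 11.6%, and beyond that 34.1% (14 of 41) and 11.2%. Among starts with a CpG ratio of at least 0.8 that were open in the other 3 libraries, it lacked 3 of 14 at the members, 21.4%, and 35 of 4530 at other genes, 0.773%. From 0.6 to 0.8 it lacked 2 of 11 (18.2%) at the members and 1.61% at other genes. Below 0.6 the members had 4 such starts in all, 2 of them under 0.3, and KO replicate 1 lacked none. Of the marker lists, mural and fibroblast genes also had fewer open starts in KO replicate 1 (3 of 6, against 5 in each other library, with Pdgfra and Tbx4 the missing ones), and 27 and 33 peaks in KO against 31 and 29 in WT, none of the 6 genes being without a peak. In the epithelial list, Cdh1 has no listed start and lacked a peak at either gene end in KO replicate 1. This list held 16 and 19 peaks in KO against 21 in each WT library. Its lineage factor Nkx2-1 had none in KO and 1 and 2 in WT. Their part in this pattern was not tested, nor was that of the shorter list of KO replicate 1.

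Where all 4 libraries called a region, peak width was the remaining measure, and 97 member regions could be compared. Where a list had several peaks in a region, their widths were summed. The widest, at Sall3, had 775 and 1588 bp in KO, against 1742 and 1592 bp in WT. Lhx4, a pituitary and motor neuron gene, had 1220 and 1062 bp in KO, against 1355 and 1539 bp in WT at chr1:155741687-155743303, with no overlap between genotypes. A region in Nkx2-2, chr2:147177709-147179129, had 1194 and 1222 bp in KO, against 1277 and 1393 bp in WT. Upstream of Nkx2-5 (chr17:26849628-26851225) the summed widths were 812 and 1229 bp in KO, against 1536 and 1384 bp in WT. The shared Lhx6 start region, given above, was the fifth widest. In all 5 both KO widths were below both WT widths, at Sall3 by only a few base pairs for KO replicate 2. These widths were not normalised. The same order held in 35.1% of the 97 member regions and in 27.1% of all regions called in every list.

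In a limma fit of quantile-normalised log2 width over all 75395 regions called in every list, the KO minus WT difference was -0.32 ± 0.102 (SE) at Lhx4 (adjusted p = 0.779), -0.12 at Nkx2-2 (0.934), -0.52 at Nkx2-5 (0.907), -0.50 at Lhx6 (0.871) and -0.57 at Sall3 (0.922), each p adjusted over all regions by Benjamini-Hochberg. Limma called 0 of the 97 member regions and 0% of all regions at an adjusted p under 0.05, with 6 member regions (6.19%) and 6.03% of all regions at an unadjusted p under 0.05. The fit was checked on simulated widths, drawn with the spread that limma estimated before normalisation and fitted without normalisation. In them 0 of 100 planted differences of 1 log2 unit and 0 of 100 of 2 units were recovered. Where every region was given the same spread, 100 of 100 of each were recovered, with 12 calls at regions without a planted difference. The count of 0 was therefore not read as a sign that real differences are small or absent. The median difference was -0.10 over the members, 65 narrower and 32 wider in KO, and 0.01 over all regions. Before normalisation, both KO widths were below both WT widths in 34 of 97 member regions, 35.1% (27.1% of all). They were above both in 5, 5.15% (7.37% of all). These counts carry a shift between whole lists. Without normalisation 80.4% of member regions and 64.9% of all were narrower in KO, against 67% and 47% with it.

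These widths too differed mainly in KO replicate 1. Before normalisation, its median log2 width relative to the other 3 libraries was -0.16 at the members and 0.00 over all regions. That of KO replicate 2 was 0.02 at the members and -0.06 over all. KO replicate 1 had the smallest of the 4 unnormalised widths in 57 member regions, 58.8%, against 33.8% of all regions. KO replicate 2 had it in 25, 25.8%, against 41.1%. In the normalised fit without KO replicate 1, the median difference at the members was 0.02, with 0.03 over all regions. A large gap between the KO libraries was seen at the start of Pax2, where the peaks were 328 and 814 bp in KO, against 1101 and 1211 bp in WT. Another was in Sim2, a gene of the nervous system midline, with 376 and 1041 bp in KO, against 1043 and 983 bp in WT. The last measure, also before normalisation, used the 140 member regions called in KO replicate 2 and both WT libraries. KO replicate 2 was narrower than both WT libraries in 52.1% of them and in 55.2% of all such regions. It was wider than both in 22.1% at the members and 19.3% of all.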

How the data were processed

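Lung endothelial cells were profiled by ATAC-seq in 2 KO and 2 WT libraries, grouped by their titles. Cutadapt, Bowtie2, Picard and the build mm10 are listed, without roles, per the submitters' processing notes. The sources used here do not give the peak caller, its threshold or any read shift. Each deposited list gives chromosome, start, end, width and strand per the file headers, and its one measurement, peak width in bp, was not normalised by the authors. The narrowest peak in every list was 201 bp. Starts are printed as listed, and some lists hold a start of 0, so a start may be off by 1 base. Each library has 1 deposited list.

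Only peaks of chromosomes 1 to 19 and the sex chromosomes entered. Gene spans came from the RefSeq gene table (GRCm38.p6), and starts and sequences from its promoter table. For 9 members without an entry, either gene end stood for the start where all 47 are counted. The same rule held for marker genes without an entry. A start is open when a peak lies within 1000 bp. A gene's window is its span and 10 kb either side. Regions are described by counts beside all regions, since regions are not replicates and no gene-level test was made. Library values allow an exact permutation test, which cannot go below 0.33. Widths, summed per region and list, were fitted with limma, with Benjamini-Hochberg adjustment at 0.05, and the fit was checked on simulated data. No score was listed, so stricter lists were made by width.

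The members, lists and comparisons were chosen with earlier results of these data known, and the pattern of absence from KO replicate 1, its splits by width, distance and CpG, and the scaled library values were chosen after seeing the data. Named are all members with a KO-only or WT-only region, those with the most and the widest regions called in all 4 lists, those not open in every library, Dnmt3a, and comparison genes with a KO-only or WT-only region; other members named were chosen after their values were seen. Alternatives covered the window, list length, width, overlap, the gap for absence, scaling, a replicate block and leaving out each library. Fits used limma 3.58.1 under R 4.3.3, and the rest Python 3.11.15 with pandas 2.3.3, numpy 2.4.6, scipy 1.17.1 and matplotlib 3.10.9.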

Additional observations from a re-analysis of the deposited data

How the results depend on the processing

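KO-only regions numbered 5. They were 2 when every list was cut to equal length by dropping its narrowest peaks (1.11% of member regions beside 1.96% of all), 1 when peaks below a list's median width were dropped (1% beside 1.08%), 3 when absence meant no peak within 500 bp, and 5 to 11 when 1 library was left out. The 11 WT-only regions became 5 at equal list length, where 2.78% of member regions stood beside 1.96% of all, and 14 to 53 when 1 library was left out. With only the wider peaks they were 10, or 10% of member regions beside 2.9% of all. The median width difference of -0.10 turned to 0.02 without KO replicate 1, and ranged from -0.18 to 0.02 over the libraries left out. Dropping peaks below the median width moved the KO minus WT difference from -2 to -9 in open genes and from -3 to -9 in open starts. With 1 library left out, the KO minus WT difference ranged from -57 to -3 in peaks, from -0.371 to -0.053 in peaks per 1000, from -3.5 to -0.5 in open genes, from -5.5 to -0.5 in open starts and from -33.8 to -9.95 kb in covered length. Same-numbered libraries did not deviate together in width (r = -0.0449 across 75395 regions, which are not independent replicates), so the numbers were not taken as pairs. The replicate block left the differences as they were (-30 peaks and -21.9 kb), and limma with the block called 0 regions (smallest adjusted p 0.668). The cause of these shifts was not tested. Depth is unknown and limits every statement on an absent peak, and the smallest possible exact p of 0.33 leaves no difference between genotypes that could pass.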

Other observations

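In peak number, single genes went against the trend of their list. Sall3 had 7 and 5 peaks in the KO libraries, against 4 and 5 in the WT libraries. Several peaks can lie in 1 region, and the 7 Sall3 peaks of KO replicate 1 fell in 5 regions. In the widest of these, the summed width was 775 and 1588 bp in KO, against 1742 and 1592 bp in WT. Dlx6, a jaw and limb factor, had 3 and 2 peaks in KO and 2 in each WT library. Otx1, a forebrain factor, had 1 and 7 peaks in KO and 5 in each WT library, so the KO libraries lay on either side of WT. Besides Pax7 and Neurog1, 5 genes had the same number of peaks in every library: Pax3 and Irx2 had 3, Six6 had 2, and Pax9 and Lhx3 had 1. Equal numbers can hide different regions, as Pax3 had 1 WT-only region.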
